A study of Mus musculus with 13 samples.

Results

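Gas5, Snhg1, Snhg3, Snhg5, Snhg6, Snhg7, Snhg8 and Snhg12 are noncoding host genes of small nucleolar RNAs (snoRNAs), and their RNA was followed in mouse embryonic stem (ES) cells with and without induction of a mutant CTCF. They were chosen by gene symbol, and all 8 had a row among the 24421 genes counted and were among the 20044 genes with at least 1 read in at least 1 library. Each was annotated as ncRNA under the same RefSeq transcript in both replicates.

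snoRNAs are short nucleolar RNAs that guide the chemical modification of ribosomal RNA, with box C/D snoRNAs directing 2′-O-methylation and box H/ACA snoRNAs directing pseudouridylation. In vertebrates most are cut out of introns, and in a noncoding host the spliced exons that remain have no protein product of their own. Several of these spliced RNAs carry short reading frames that ribosomes enter, which makes them targets of nonsense-mediated decay (NMD), and several begin with a 5′ terminal oligopyrimidine tract, a C followed by a run of C and T that is also found at the start of ribosomal protein mRNAs and ties their translation to growth signalling. Gas5, growth arrest-specific 5, was named for a transcript that accumulates when cells stop growing. Snhg genes are named as small nucleolar RNA host genes.

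The cells were of the female ES line F1-2.1, from a cross of the CAST/Ei and 129 strains, and grew on irradiated mouse embryonic fibroblast feeders in medium with LIF. All 4 libraries were made from clone A2, 1 selected line with a Tet-on transgene for CTCF S224E, a form of this chromatin-organizing zinc finger protein with glutamic acid in place of a serine, made together with EGFP. Endogenous Ctcf was left in place in every culture. The +dox group (n = 2) was grown for 6 days with 1 µg/mL doxycycline and the −dox group (n = 2) for 6 days without it, and the replicates were described as biological. No RNA library of doxycycline-treated cells without the transgene was analysed here, so effects of S224E and of doxycycline cannot be told apart. Nor was any library of cells induced to make wild-type CTCF, so the substitution, added CTCF and EGFP cannot be separated. In such bulk samples, fewer cells of a type and less RNA per cell cannot be told apart either.

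Counted reads came to between 22899107 and 30206085 per library, and the 10 most abundant genes took 2.35% to 2.63% of them. Reads on Ctcf, which do not separate endogenous from transgenic RNA, gave 327 and 329 CPM (counts per 1000000 reads, with library sizes scaled by the trimmed mean of M-values, TMM) with dox and 295 and 304 without, a log2 fold change of 0.13 (SE 0.09) that did not pass edgeR's quasi-likelihood test (adjusted p = 0.475). Per the authors, a minor share of the reads over the mutated codon carried glutamate, their evidence that S224E was expressed. The 10 ES cell markers had at least 187 CPM in every library. Markers of the fibroblast feeders, 28 genes, summed to 5429 CPM in +dox replicate 1 and to only 2713 in the other +dox library, with 2432 and 2746 in the −dox libraries. Fn1 alone gave 2326 and 1357 CPM with dox and 1238 and 1472 without, so it weighs heavily in these sums. The median log2 ratio of +dox to −dox over the 28 genes was 1.58 in replicate 1 and 0.22 in replicate 2. Markers of the primitive streak, 12 genes, summed to 41.6 and 41.0 CPM with dox and 182 and 216 without.

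In the mm9 assembly the RefSeq 5′ ends of the 8 hosts were surrounded by the following bases, shown because this stretch decides whether a transcript can begin with an oligopyrimidine tract. Each sequence is the transcribed strand over 30 bases, 15 on either side of the annotated start, so that the first transcribed base is the 16th letter. Capitals mark the longest unbroken run of C and T.
Gas5: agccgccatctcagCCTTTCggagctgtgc
Snhg1: gttgttcttgtcggcctcaTTTTTCCTTgt
Snhg3: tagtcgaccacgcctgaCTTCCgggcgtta
Snhg5: gagctgcggtgaaccgggctcgTTCTTTTa
Snhg6: acgctgggccaCTTCCTTTCTCggcagcgc
Snhg7: gtggagatgctcggCCTCTCggcagccatg
Snhg8: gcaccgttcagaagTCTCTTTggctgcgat
Snhg12: ggccgttctcagTCCTTTCTCgcttcatcc

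On the plus strand these windows were chr1:162965282-162965311 for Gas5, chr19:8797962-8797991 for Snhg1 and chr4:131864578-131864607 for Snhg12. On the minus strand they were chr4:131909587-131909616 for Snhg3, chr9:88417721-88417750 for Snhg5, chr1:9934185-9934214 for Snhg6, chr2:26495750-26495779 for Snhg7 and chr3:123211240-123211269 for Snhg8. A C followed by at least 4 further bases that were each C or T occurred in 7 of the 8 windows on the transcribed strand, where 36.9% of the windows of 20043 tested genes held it. On the other strand, searched in the same way, it occurred in 1 of the 8 (Snhg8), against 41.3% of all windows. Counting the first transcribed base as 1, with no position 0, the match began at position -1 in Gas5 and Snhg7, at -2 in Snhg12, at -4 in Snhg6, at 1 in Snhg8, at 3 in Snhg3 and at 10 in Snhg5. Snhg1 was the exception by its letters, because the 9-base run downstream of its annotated start opened with T and had too few pyrimidines after its first C. The annotated first base was C in Gas5, Snhg1, Snhg6, Snhg7 and Snhg8. Where transcription starts in these cells was not measured, and a match in letters is not a measured tract. Among other host genes the match was found in 6 of 11 noncoding hosts (54.5%) and 13 of 32 protein-coding hosts (40.6%).

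The 8 hosts differed in their snoRNA content. By GENCODE annotation they enclosed 29 snoRNA genes in the same orientation, of which Gas5 held 9 and Snhg1 held 8, all of them box C/D. Snhg5 contained 2 copies of Snord50 and Snhg6 contained Snord87, also box C/D. Box H/ACA genes filled Snhg3 with Snora73a and Snora73b, Snhg7 with Snora43 and Snora17, and Snhg8 with Snora24. Snhg12 was the mixed host, with Snora16a, Snora44 and Snora61 beside the box C/D gene Snord99. Gas5 spans 162965297 to 162968668 on chromosome 1 and Snhg1 spans 8797977 to 8800816 on chromosome 19, both on the plus strand. Snhg3 (131907848 to 131909601, minus strand) and Snhg12 (131864593 to 131866939, plus strand) both lie on chromosome 4. On the minus strand lie Snhg5 (chromosome 9, 88415891 to 88417735), Snhg6 (chromosome 1, 9932106 to 9934199), Snhg7 (chromosome 2, 26492696 to 26495764) and Snhg8 (chromosome 3, 123210470 to 123211254). No host gene spanned more than 3372 bases.

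**Figure D1:**
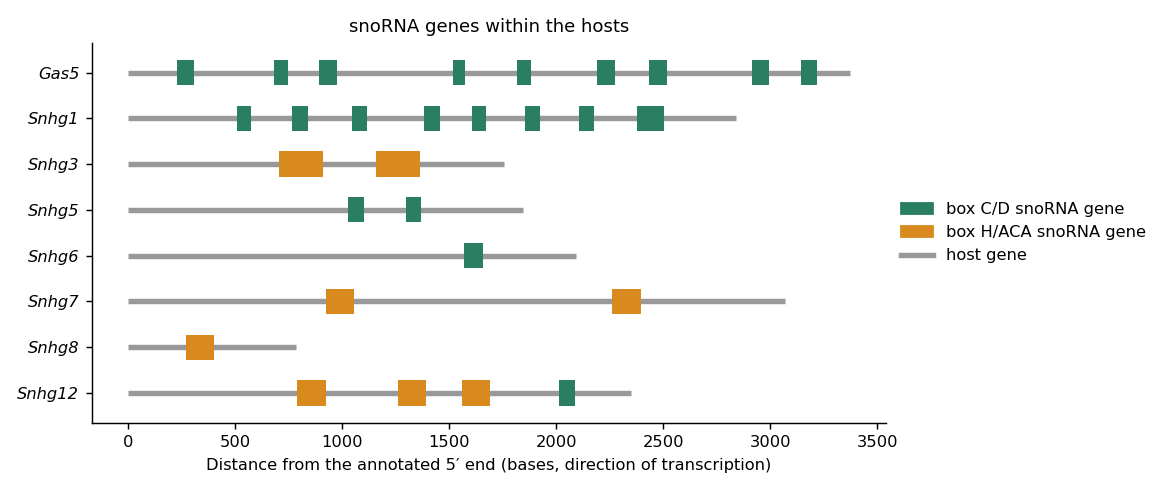
Map of the 8 host genes, drawn to scale as grey lines from the annotated 5′ end (x axis, bases in the direction of transcription), with box C/D snoRNA genes in green and box H/ACA snoRNA genes in orange. Gas5 carries 9 and Snhg1 carries 8 small green blocks, whereas Snhg3, Snhg7 and Snhg8 carry orange blocks only and Snhg12 carries 3 orange blocks and 1 green block.

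The +dox cells were compared with the −dox cells to ask which genes differ when CTCF S224E and EGFP are induced. None of the 8 host genes passed the test between +dox and −dox cells, yet all 8 had a positive log2 fold change, from 0.13 in Snhg6 to 0.44 in Snhg3, or 1.10-fold to 1.35-fold. Of all 20044 tested genes, 10178 had a positive log2 fold change. At an adjusted p under 0.01, edgeR's quasi-likelihood test called 0 of the 8, where it called 0.599% of all tested genes (0.0798% as higher and 0.519% as lower). At 0.05 it called 0 of the 8 and 2.86% of all genes (0.928% as higher). DESeq2 also called 0 of 8, against 1.87% of all genes. At an unadjusted p under 0.05 there were 3 of the 8, Gas5, Snhg3 and Snhg5, all with higher values in +dox cells, beside 17.8% of all genes in either direction and 8.48% in that direction. The median log2 fold change of the 8 was 0.28, and that of the 13911 genes averaging at least 1 CPM was -0.00. In the ranking of all tested genes from the highest fold downward, the 8 fell between the first 16.5% and the first 36.0%.

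Among the hosts of box C/D snoRNAs, Gas5 had 150.3 and 178 CPM with dox and 144 and 124.5 without, replicate 1 first in each case. Both +dox libraries were therefore above both −dox libraries, although replicate 1 barely separated them. The means were 164 ± 19.5 and 134 ± 14.0 (SD, n = 2 each), giving a log2 fold change of 0.29 (SE 0.11, 95% interval 0.04 to 0.53) with an adjusted p of 0.192 in edgeR and 0.188 in DESeq2.

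Snhg5, the host of Snord50, was measured at 76.4 and 95.9 CPM with dox and at 70.1 and 70.3 CPM without, in replicate order. Its −dox libraries were nearly identical, and its +dox libraries lay above them and apart from each other. The log2 fold change was 0.30 (SE 0.12, 95% interval 0.03 to 0.56, edgeR adjusted p = 0.215).

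Snhg1, which encloses Snord22 and the series from Snord25 to Snord31, gave 90.3 and 112 CPM with dox against 78.8 and 93.2 without. The groups overlapped, since +dox replicate 1 lay below −dox replicate 2, while the +dox library was the higher within each replicate. Its log2 fold change of 0.23 (SE 0.13) had a 95% interval from -0.04 to 0.50 and an edgeR adjusted p of 0.374.

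Snhg6, the host of Snord87, had 19.5 and 28.9 CPM with dox and 20.8 and 23.4 without. The +dox libraries held both the lowest and the highest value, so the groups overlapped. The log2 fold change was 0.13 (SE 0.19, 95% interval -0.28 to 0.54, edgeR adjusted p = 0.743), an interval that includes changes in either direction.

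Among the hosts of box H/ACA snoRNAs, Snhg3 had 18.2 and 21.6 CPM with dox and 14.8 and 14.5 without. It encloses Snora73a and Snora73b, the mouse U17 genes, whose RNA acts in cleavage of the ribosomal RNA precursor rather than as a pseudouridylation guide. The groups did not overlap, and the log2 fold change of 0.44 (SE 0.17, 95% interval 0.07 to 0.80) had an adjusted p of 0.188 in edgeR and 0.191 in DESeq2.

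Snhg7 gave 16.3 and 14.2 CPM with dox and 13.2 and 11.9 without. It was the only host of the 8 with its highest value in +dox replicate 1, and its groups did not overlap. With 299 to 404 reads per library its log2 fold change was 0.28 (SE 0.18, 95% interval -0.11 to 0.67, edgeR adjusted p = 0.468).

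Snhg8, with Snora24, had 25.7 and 29.8 CPM with dox and 24.5 and 25.9 without. The groups overlapped narrowly, as +dox replicate 1 fell just below −dox replicate 2. The log2 fold change of 0.14 (SE 0.15) had a 95% interval from -0.18 to 0.46 and an edgeR adjusted p of 0.693.

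Snhg12, the mixed host, stood at 80.4 CPM in +dox replicate 1 and 129.5 in +dox replicate 2, between which both −dox libraries (82.7 and 83.6) lay. The SD was 34.8 CPM over the +dox and 0.59 over the −dox libraries, and the gap of 0.69 (log2) between the +dox libraries was the widest of the 8. The log2 fold change was 0.34 (SE 0.17, 95% interval -0.03 to 0.70, edgeR adjusted p = 0.335).

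**Figure D2:**
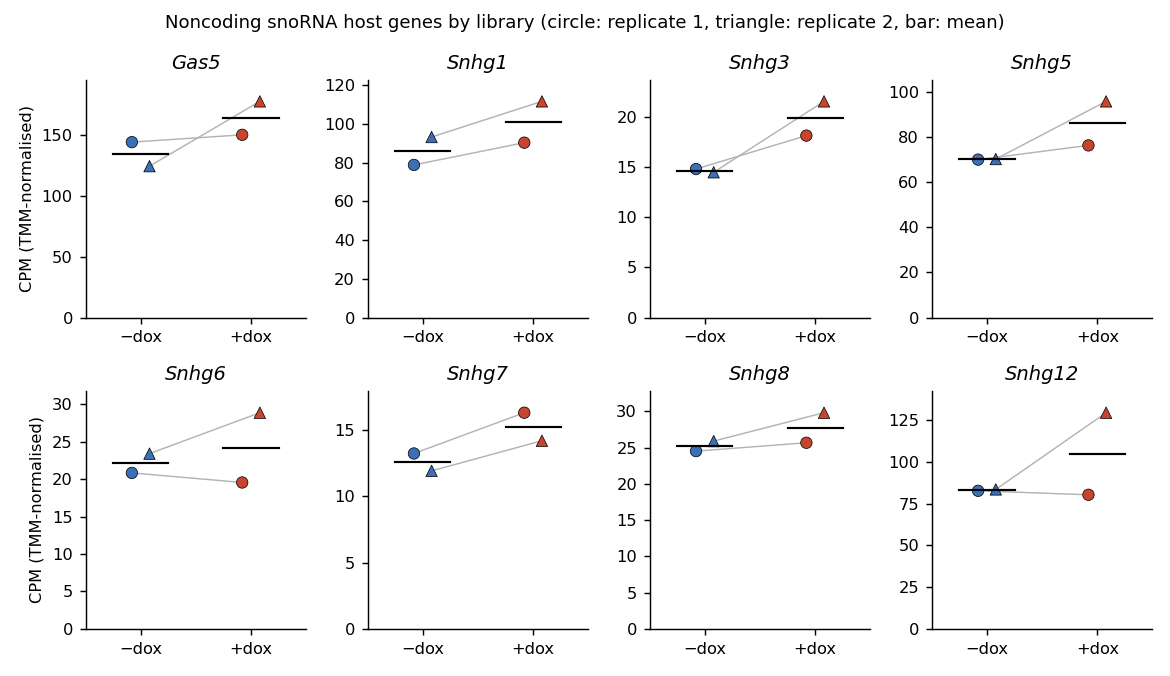
TMM-scaled CPM of each host gene (y axes, from 0, on a scale of their own) in −dox (blue) and +dox (red) libraries, with circles for replicate 1, triangles for replicate 2, grey lines joining libraries with the same number and black bars at the group means. The red triangle is the highest point in 7 of the 8 panels, and in Snhg6 and Snhg12 the red circle is the lowest.

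The libraries of the groups did not overlap, with +dox higher, in 4 of the 8 hosts (Gas5, Snhg3, Snhg5 and Snhg7), which compares with 23.3% of all tested genes and 26.1% of those averaging at least 1 CPM. In 6 of the 8 the +dox library was higher in both replicates, as it was in 34.0% of those genes. The exceptions were Snhg6 and Snhg12, whose replicate 1 ratios were -0.09 and -0.04 on the log2 scale.

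The difference between +dox and −dox cells was uneven between the replicates. The median log2 ratio of the 8 hosts was 0.10 in replicate 1, with a range from -0.09 to 0.30, and 0.37 in replicate 2, with a range from 0.20 to 0.63. Snhg12 had the widest gap, with a +dox to −dox ratio of 0.97 in replicate 1 and 1.55 in replicate 2. Snhg7 was the only host whose ratio was larger in replicate 1 (1.23) than in replicate 2 (1.19). +dox replicate 2 was the highest of the 4 libraries for 7 of the 8 hosts, which was the case for 29.5% of genes averaging at least 1 CPM. Between the −dox libraries the median difference of the 8 (replicate 2 against 1) was 0.01 on the log2 scale, from -0.21 in Gas5 to 0.24 in Snhg1. Between the +dox libraries the median was 0.28, with replicate 2 higher, and the range was -0.20 in Snhg7 to 0.69 in Snhg12. Added together, the 8 hosts took 477 and 609 CPM with dox, and 449 and 447 without. The feeder markers went the other way between the +dox libraries, at 5429 CPM in replicate 1 and 2713 in replicate 2. By fold 27 of the 28 were higher in +dox cells, and none was at 0 in all libraries. The groups did not overlap in 17 of 28 with +dox higher, beside 23.3% of all tested genes, and in 0 of 28 with +dox lower. The part of the feeder markers in the values of the hosts was not tested. The ES cell markers went the same way as the hosts between the +dox libraries, with sums of 6229 and 7052 CPM. Unlike the hosts they also rose between the −dox libraries, from 5633 to 6078 CPM. Their median log2 ratio of +dox to −dox was 0.18 in replicate 1 and 0.21 in replicate 2, more even than that of the hosts. By fold 8 of 10 were higher, and none was at 0 in any library. The groups did not overlap in 4 of 10 with +dox higher, beside 23.3% of all tested genes. In 1 of 10 they did not overlap with +dox lower, as in 4756 of all 20044 tested genes. The median difference of the ES cell markers between replicates 2 and 1 was 0.19 (log2) in both the +dox and the −dox libraries. Their part was not tested either.

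Without +dox replicate 2 the median log2 fold change of the 8 was 0.10, and Snhg6 (-0.18) and Snhg12 (-0.05) had negative values. When +dox replicate 1 was left out instead, the median was 0.39, and Snhg12 had the largest log2 fold change of the 8, 0.64. In that fit the lone +dox library was taken to vary like the −dox pair. Leaving out −dox replicate 1 or −dox replicate 2 gave medians of 0.31 and 0.26.

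**Figure D3:**
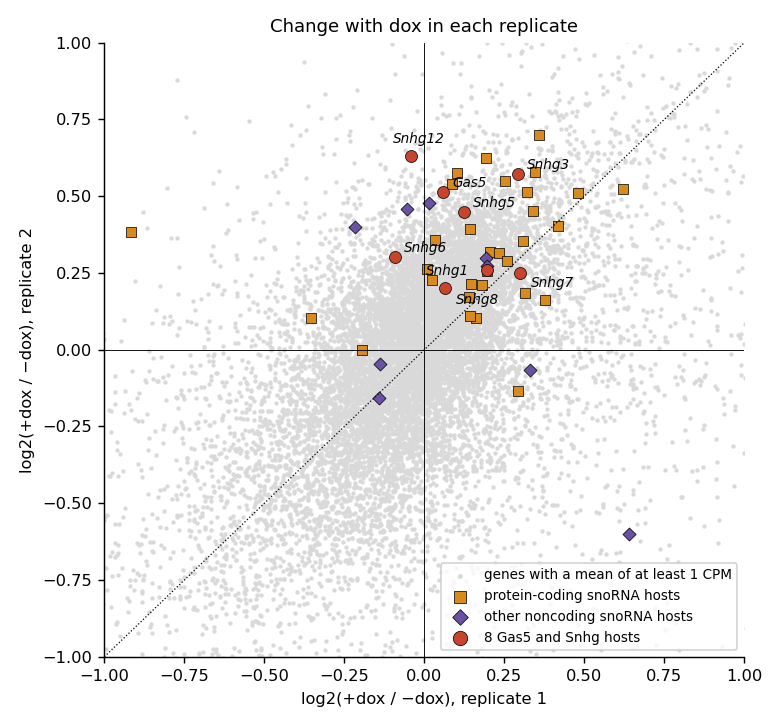
Log2 ratio of +dox to −dox in replicate 1 (x axis) and replicate 2 (y axis) for genes averaging at least 1 CPM (grey), protein-coding snoRNA hosts (orange squares), other noncoding hosts (purple diamonds) and the 8 Gas5 and Snhg hosts (red circles), where the dotted line marks equal ratios. The axes run from -1 to 1 and leave out 1023 of 13911 genes, Rpl23a among them, and 7 of the 8 red circles lie above the dotted line, with Snhg7 below it.

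Levels of different genes were compared per length, as CPM divided by the kilobases of counted transcript. By the counted length Snhg1 had the highest level, 201 ± 29.2 CPM per kilobase (SD over the 4 libraries), and exceeded 98.8% of all tested genes. Snhg12 followed with 156 ± 39.4, and its libraries overlapped those of Snhg1. Snhg5 came next with 77.8 ± 12.1, below every library of Snhg12. Gas5 (58.5 ± 8.63) and Snhg6 (57.5 ± 10.2) were not separated by their spread, and the highest Gas5 library and the lowest Snhg5 library both rounded to 69.7. The highest Snhg6 library (71.6) lay above the lowest of Snhg5, so these overlapped. So did Gas5 and Snhg3, as the highest Snhg3 library (49.7) lay above the lowest of Gas5 (48.8). Snhg3 (39.8 ± 7.65) overlapped Snhg6 on one side and Snhg8 (33.8 ± 2.94) on the other. Snhg7 was lowest with 18.8 ± 2.50, below every library of Snhg8, and still exceeded 75.4% of tested genes. This order depends on the length counted for each gene. Snhg1 was counted over 466 bases, while its 2 GENCODE transcripts have 2339 and 2719 spliced bases. The same CPM divided by those lengths gives 40.0 or 34.4 CPM per kilobase, below Snhg12, Snhg5 and Gas5 as counted. Reads were not counted again over GENCODE exons, so these figures show the effect of the divisor alone and are not measured levels. Gas5 was counted over 2550 bases, and its 25 GENCODE transcripts run from 346 to 2556, which as divisors give 431 to 58.4 CPM per kilobase. Divided in this way, Snhg12 gives 101 to 258, Snhg3 29.7 to 52.0, Snhg7 5.88 to 18.8 and Snhg5 78.7 CPM per kilobase. Snhg6 and Snhg8 were matched to no GENCODE transcript. For Snhg8 the counted 784 bases cover nearly its whole span of 785, so that Snora24 lies within them. The counted 2550 bases of Gas5 make up most of its span of 3372, so its reads need not come from fully spliced RNA alone.

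**Figure D4:**
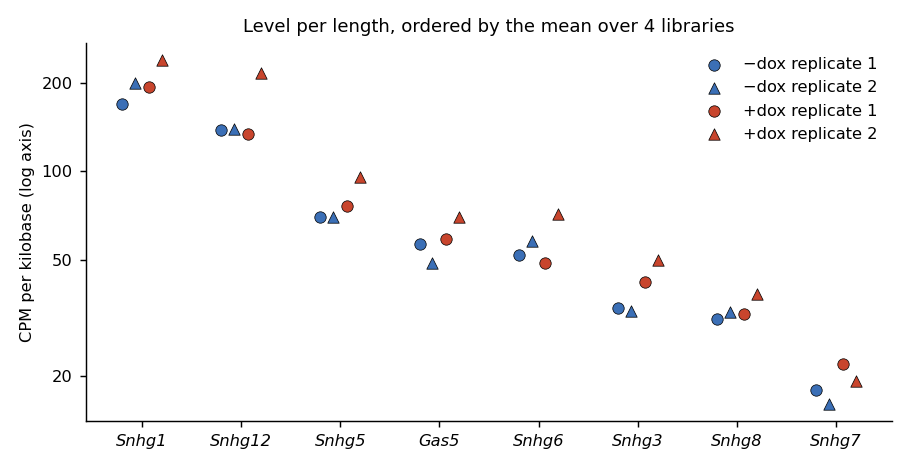
CPM per kilobase of counted transcript (y axis, log scale) of the 8 host genes in the 4 libraries, ordered by their mean from left to right. Snhg1 and Snhg12 lie at 134 or above in every library, Snhg7 lies between 16.1 and 22.1, and the 4 libraries of Gas5 and Snhg6 cover much the same range.

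Noncoding hosts outside the 8 were taken from a list of 13 genes, of which 11 had a row. None was called by edgeR or DESeq2, 1 had an unadjusted p under 0.05 in edgeR (17.8% of all genes in either direction, 8.48% as higher), 8 had higher and 3 lower values with dox, and the median log2 fold change was 0.15. Zfas1, counted under its older name 1500012F01Rik and host of Snord12 genes, had 106 and 118 CPM with dox and 93.0 and 96.1 without, with a log2 fold change of 0.25 (SE 0.10, edgeR adjusted p = 0.217). Snhg17 resembled Snhg12 in its libraries, with 85.7 and 123 CPM with dox and 84.8 and 88.4 without, a log2 fold change of 0.27 and an edgeR adjusted p of 0.364. Epb41l4aos was at 0.24, Dancr at 0.18, Snhg20 at 0.15, Snhg18 at 0.09 and Snhg4 at 0.05 on the log2 scale. On the lower side were Snhg11 (-0.09), the neuronal host Snhg14 (-0.15) and Snhg10 (-0.60). Snhg9 (0.40) and Snhg10 were counted at about 1 CPM or below, and the intervals of all these genes except 1500012F01Rik included 0.

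**Figure D5:**
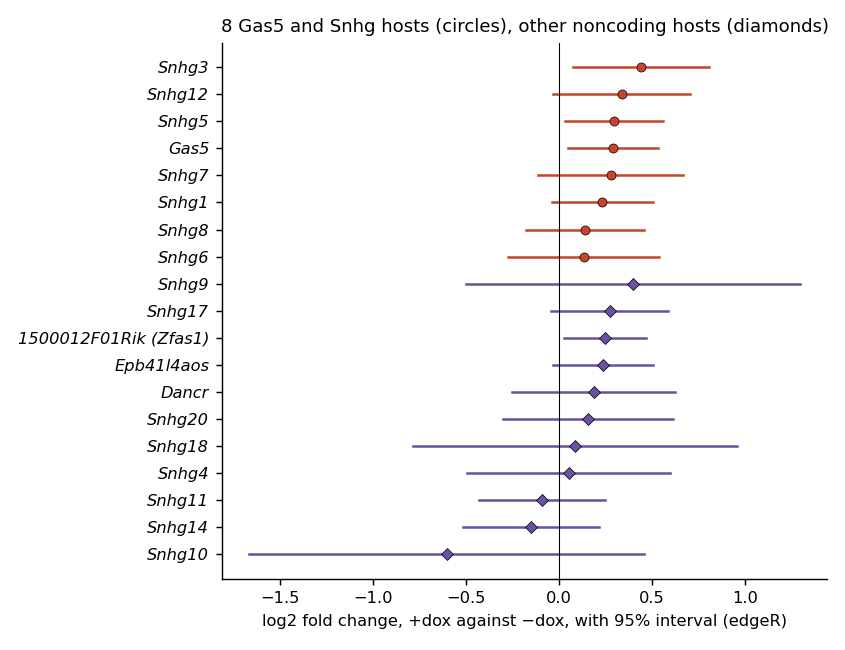
Log2 fold change of +dox against −dox cells (x axis) with its 95% interval from edgeR for the 8 Gas5 and Snhg hosts (red circles) and the other 11 noncoding hosts (purple diamonds). All red circles lie right of 0 with intervals that exclude 0 for Gas5, Snhg3 and Snhg5 before adjustment over genes, and the purple diamonds lie on both sides, from -0.60 in Snhg10 to 0.40 in Snhg9.

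Protein-coding hosts carry further snoRNAs in the introns of ribosomal protein, translation factor and nucleolar protein genes. Of 32 such genes, edgeR called 0 and DESeq2 called 4 (Rpl32, Ppan, Rpl13a and Hspa8), all higher with dox, beside 0.589% of all genes called as higher by DESeq2. At an unadjusted p under 0.05 edgeR gave 18 of 32, all higher, where the share of all genes was 8.48% in that direction. The median log2 fold change was 0.26, close to the 0.28 of the 8 noncoding hosts. In both replicates 27 of 32 were higher, beside 34.0% of genes averaging at least 1 CPM. Replicate 1 gave them a median of 0.19 and replicate 2 one of 0.33. Rpl32, a protein of the large ribosomal subunit, had 360 and 414 CPM with dox and 234 and 288 without, a log2 fold change of 0.57 (SE 0.11) and an edgeR adjusted p of 0.0216. Rpl10, also of the large subunit, was at 0.52 (edgeR adjusted p = 0.199). At the other end were Rpl7a at -0.34 (SE 0.24, edgeR adjusted p = 0.521) and the translation initiation factor Eif4a2 at -0.09 (0.709). The replicates of Rpl7a went opposite ways, with log2 ratios of -0.92 in replicate 1 and 0.38 in replicate 2. Ribosomal protein genes have many processed pseudogenes, and several were counted at only a few CPM from unique reads (Rpl17 at 1.78 to 2.29), so their values are uncertain. The ratio of Rpl23a went from -1.79 in replicate 1 to 2.44 in replicate 2 on the log2 scale.

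Genes for the proteins of snoRNA particles and for NMD, the pathway that degrades several of the spliced host RNAs, were counted as 28 genes. Nop56 and Dkc1 among them were also counted as protein-coding hosts, so the lists are not separate sets. edgeR and DESeq2 called 0 of them, and 9 had an unadjusted p under 0.05 in edgeR, 8 of these with higher values in +dox cells, beside 17.8% of all genes in either direction and 8.48% as higher. The 8 core proteins had a median log2 fold change of 0.20 with 6 higher, the 10 assembly factors 0.14 with 9 higher, and the 10 NMD factors 0.13 with 8 higher. Fbl, the methyltransferase of box C/D particles, was at 0.41 (edgeR adjusted p = 0.267), and Nhp2l1, a C/D core protein that also serves the spliceosome, at -0.19 (0.537). Of the NMD genes, Upf3b, an exon junction adaptor, was at 0.29 (edgeR adjusted p = 0.244), and Smg1, the kinase that phosphorylates Upf1, was at -0.31 (0.254). Smg1 had 246 and 171 CPM with dox and 265 and 253 without, and Upf3b had 108 and 141 with dox and 98.4 and 106 without.

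The gene nearest to each host on either side gave 16 neighbours at gaps of 678 to 38655 bases, 15 of which had counts. None passed edgeR's test at 0.01, 3 had an unadjusted p under 0.05, beside 17.8% of all genes, and DESeq2 called 1, beside 1.87% of all genes. The DESeq2 call was Wdr74, a ribosome biogenesis factor 9512 bases downstream of Snhg1 on the same strand, with 258 and 274 CPM with dox and 209 and 182 without, a log2 fold change of 0.44 (SE 0.10) and adjusted p-values of 0.0336 in edgeR and 0.00471 in DESeq2. Slc3a2, on the other side of Snhg1 and transcribed away from it, was at 0.25 (edgeR adjusted p = 0.177). Zbtb37, transcribed away from Gas5 across 906 bases, was at 0.28 (0.528). Around Snhg3 and Snhg12, which lie near each other on chromosome 4, Trnau1ap was at 0.02, Rcc1 at 0.03, Phactr4 at -0.20 and Rab42 at -0.66 with under 1 CPM. Fam69b, 678 bases from the 3′ end of Snhg7 and convergent with it, was at -0.39 (edgeR adjusted p = 0.232), against 0.28 for Snhg7. Next to Snhg5 were Syncrip at -0.06 and Zfp949 at 0.20, next to Snhg6 were Mcmdc2 at -0.38 and Tcf24 at -0.36, and next to Snhg8 were Prss12 at 0.39 and Ndst3 at -0.85, both under 1 CPM. Lcn4, beside Snhg7, had no reads. Use of strand in the counting is not given in the sources used here, and none of these neighbours overlapped its host.

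The genes whose pattern over the 4 libraries was most like the median of the 8 hosts were found among 9962 genes averaging at least 10 CPM, by the Euclidean distance between log2 CPM deviations from each gene's mean. Ccdc59 (0.0259), Mrpl47 (0.0287), Zfand1 (0.0296), Rrnad1 (0.0379) and Tmem120b (0.0380) were nearest. Ccdc59 had 61.7 and 76.0 CPM with dox and 56.9 and 57.7 without. Of the 8 hosts themselves, Snhg5 had the smallest distance to their median (0.0224) and Snhg7 the largest (0.380), with 4783 of the 9962 genes nearer than Snhg7. With 4 libraries, which all genes share, this likeness is a description.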

How the data were processed

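RNA-seq of 4 libraries was used, 2 with and 2 without dox. Per the authors, trimming was by cutadapt, alignment to mm9 by TopHat2, and counting of unique exonic reads per gene by HOMER after removal of PCR duplicates. The deposited values are raw counts, not normalized, in a table for each replicate. Tool versions and the use of strand are not given in the sources used here. The ChIP-seq and Hi-C files were not used here.

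Symbols were used to join both tables. Groups followed the labels. Genes with at least 1 count in 1 library were tested with edgeR 4.0.16 (R 4.3.3, quasi-likelihood test, TMM, no replicate block, Benjamini-Hochberg adjustment over all 20044 genes, threshold 0.01, two-sided), as the study's methods filter and threshold with DESeq2. CPM were TMM-scaled, and replicate ratios used a prior count of 2. The SE was taken from the test statistic. Alternatives were DESeq2 1.42.0, edgeR's likelihood ratio test, adjusted deviances, a replicate block, DESeq2's size factors, total counts, filterByExpr, a threshold of 0.05 and leaving out each library.

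The 8 genes and the lists of other hosts, snoRNA particle proteins, NMD factors and markers were chosen with earlier results of these data known. Named genes were the 8 hosts, the other noncoding hosts, the 2 largest and 2 smallest folds at a mean of at least 10 CPM in each further list where no gene passed, each host's neighbours (1 of which is not reported here) and the 5 genes with the nearest pattern. Ppan, Rpl13a, Hspa8, Rpl17, Rpl23a and Fn1 were named after their values were seen. Nop56 and Dkc1 were named because the lists of protein-coding hosts and of snoRNA particle proteins share them. Snhg15 and Snhg16 of the list of other hosts were matched to no row. Reads per host and library numbered 299 to 4406. p-values and intervals rest on the spread between 2 libraries a group, after each gene's variance was drawn towards that of other genes. They cover no other error. Sequences are from the NCBIM37 (mm9) genome and snoRNA genes from GENCODE vM1.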

Additional observations from a re-analysis of the deposited data

How the results depend on the processing

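With 2 libraries per group, the number of genes called in the whole table moved widely. The 120 genes called became 375 with DESeq2, 457 with edgeR's likelihood ratio test, 0 with adjusted deviances, 11 with filterByExpr and 573 at a threshold of 0.05, and from 0 to 992 when a library was left out. None of the 8 hosts was called under DESeq2, the likelihood ratio test, adjusted deviances or the block. Nor was any called under either other scaling, filterByExpr or the threshold of 0.05. Fits with a library left out are given here by their log2 fold changes. The sign turned without +dox replicate 2 in Snhg6 (-0.18) and Snhg12 (-0.049). Over the libraries left out, log2 fold changes ran from -0.18 to 0.38 in Snhg6, from -0.049 to 0.64 in Snhg12 and from 0.16 to 0.40 in Gas5. With total counts in place of TMM the median of the 8 was 0.24.

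Called protein-coding hosts numbered 0, but 4 with DESeq2, 2 with the likelihood ratio test, 5 at a threshold of 0.05 and 0 to 7 with a library left out. No other noncoding host and no snoRNA particle or NMD gene was called in a fit that kept every library. Without +dox replicate 1 the log2 fold change was 0.51 in Snhg17, -0.60 in Smg1 and 0.46 in Upf3b. The cause of these differences was not tested.

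The labels give the libraries replicate numbers and no shared batch, and the correlation of same-numbered deviations was 0.196 over genes. A replicate block gave 786 calls in edgeR (316 higher), among them 6 protein-coding hosts and 0 of the 8 hosts, whose median was 0.28 and whose lowest adjusted p was 0.0857, in Gas5.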

Other observations

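snoRNAs themselves were at the edge of this measurement, which selected polyadenylated RNA. Of the 29 snoRNA genes inside the 8 hosts, 10 had a row of their own. Snord22, inside Snhg1, had the most reads, 75 and 95 with dox and 113 and 66 without, in replicate order, and Snord99, inside Snhg12, had 20 and 18 with dox and 37 and 11 without. Over all 114 rows of snoRNA genes the reads came to 1624 and 1634 with dox and 2367 and 1532 without, or 0.00622% to 0.00784% of counted reads. Of the 104 with at least 1 read, edgeR and DESeq2 called 0, beside 0.599% and 1.87% of all genes. At an unadjusted p under 0.05 edgeR gave 1, beside 17.8% of all genes. Only 19 of these rows averaged at least 1 CPM, so most had few reads to test. At this depth, and from polyadenylated RNA, these values describe the rows and not the amount of mature snoRNA.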
